A study of Canis lupus familiaris with 31 samples.

Results

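CISH, SOCS1 to SOCS7, STAT5A and STAT5B are 10 genes of cytokine signalling, and their transcript levels were described in whole blood of 31 Miniature Schnauzers. The 10 genes were taken by symbol from a table of 32704 annotated genes, each had 1 row, and all 10 passed the filter on low counts that left 13918 genes for testing. The dogs were client-owned, purebred and fasted, and fell into 13 HTG cases, which had raised triglycerides in fasting serum, and 18 controls, which had fasting triglycerides within the range the study set for controls. The cases comprised 8 males and 5 females, and the controls 10 males and 8 females. The males were castrated and nearly every female was spayed. Each dog gave 1 blood sample and 1 RNA-seq library, so that every dog is a separate replicate. The libraries held between 14524659 and 41533599 counts over all genes, and levels are given as CPM (the counts of a gene per 1000000 counts of the library) after scaling by TMM, a method that corrects for differences in library composition. Transcript lengths were not used, so levels are compared between dogs and not between genes.

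Many cytokine and hormone receptors, among them those for erythropoietin, thrombopoietin, growth hormone and interleukin-2, signal through a Janus kinase (JAK) bound to the receptor. The kinase phosphorylates STAT5A and STAT5B, which then enter the nucleus and switch on target genes. CISH and several of the SOCS genes are among these targets, and their proteins act back on the pathway. Each has an SH2 domain that binds phosphorylated tyrosines and a SOCS box that recruits an Elongin and Cullin-5 ubiquitin ligase. In blood, STAT5 is best known for its part in the growth and survival of red cell precursors, megakaryocytes and lymphocytes.

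The gene set was chosen by measured values: in earlier results of these data CISH was among the genes that differed between cases and controls. The SOCS genes belong to its family, and STAT5A and STAT5B act on it. The case and control levels of the 10 genes are therefore given as a description, without a P-value. Of the 13918 genes tested with edgeR, 5 (0.0359%) passed an adjusted P of 0.05, all higher in cases, and none of the 10 was among them. With DESeq2, 89 genes passed (0.563%). CISH was among them, but it had been chosen on this contrast, so nothing is read from that call. The median log2 fold change of cases over controls was 0.08 over the 10 genes and -0.02 over all genes tested, and 8 of the 10 values were above 0.

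CISH, the STAT5 target whose protein binds activated receptors and limits STAT5 signalling, was the gene of the 10 with the largest difference. In cases its level ran from 45.4 CPM in case 13 through a median of 54.9 CPM to 130.03 CPM in case 1. In controls it ran from 21.7 CPM in control 16 through a median of 38.3 CPM to 78.4 CPM in control 15. All 13 cases lay above the control median and 14 of 18 controls lay below the lowest case, while 2 cases lay above the highest control, so the groups overlapped. The means were 63.4 ± 22.9 CPM (SD, n = 13) in cases and 40.6 ± 12.0 CPM (SD, n = 18) in controls, a log2 fold change of 0.64 (SE 0.15). The gene was well counted, with 715 to 2176 counts per case and 420 to 1746 per control. In whole blood, a change in the number of cells of a type and a change in RNA per cell cannot be told apart.

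**Figure D1:**
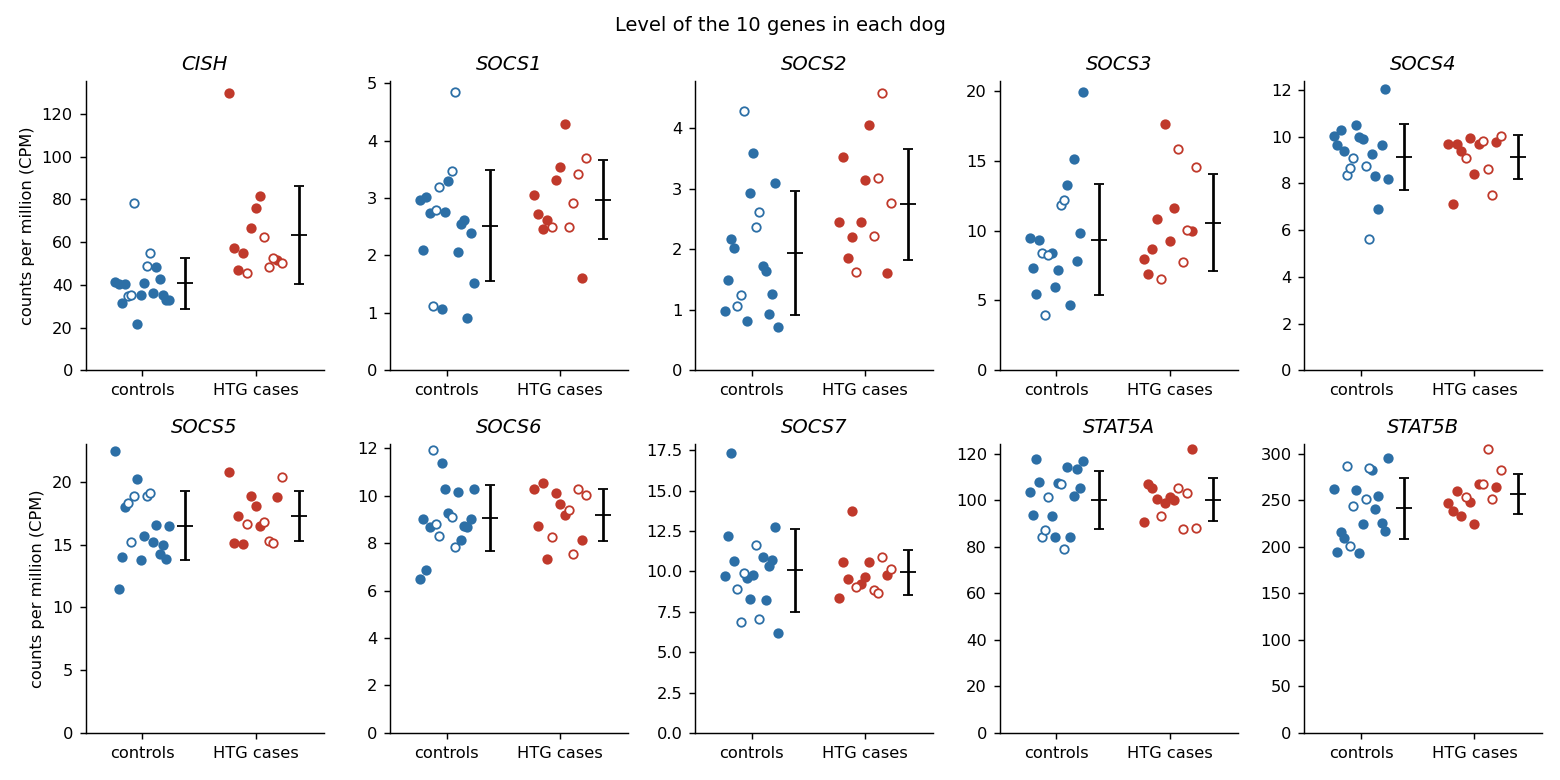
Level of each of the 10 genes (CPM, linear axes from 0) in the 18 controls (blue) and 13 HTG cases (red), 1 point per dog; open points mark 10 dogs whose small RNA counts were high, and the bar beside each group is the mean and SD. CISH cases sit between 45.4 and 130.03 CPM and 14 of 18 controls lie below them, while STAT5A has nearly the same mean in both groups.

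The protein sequences and the genome positions of the 10 genes are not given, because no sequence or annotation of the genome build used was at hand. In the RefSeq gene table for assembly UU_Cfam_GSD_1.0, which matched all 10 symbols, the protein-coding genes on either side of CISH are MAPKAPK3, a stress-activated kinase, and HEMK1, a methyltransferase. MAPKAPK3 was at 31.03 ± 5.94 CPM in cases and 27.7 ± 3.88 CPM in controls (log2 fold change 0.16, SE 0.09). HEMK1 was at 6.73 ± 1.51 CPM in cases and 6.93 ± 1.67 CPM in controls (log2 fold change -0.04, SE 0.12).

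The libraries fell into sets that the labels do not name. Averaged as log2 CPM, 366 rows that carry names of small non-coding RNAs left a gap between 21 dogs at up to 1.40 and 10 dogs at 1.66 or more. The 10 dogs above the gap, called here the set with high small RNA counts, were cases 5, 6, 7, 9 and 13 and controls 2, 3, 13, 14 and 15. The methods describe a pilot set with the same number of cases and of controls, prepared earlier, and a batch covariate in the study's own fit. The labels do not name the pilot dogs, whether these are the same dogs was not tested, and the fit of cases against controls used here has no such covariate. With the set as a covariate CISH had a log2 fold change of 0.64 (SE 0.15). With the group as a covariate, 1053 of 13918 genes (7.57%) differed between the sets (edgeR, adjusted P at most 0.05), and none of the 10 genes did. STAT5A came nearest, with a log2 difference of -0.14 (SE 0.06) in the dogs with high small RNA counts (edgeR, adjusted P = 0.171).

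The values of CISH are given within each of the 2 sets. Among the 21 dogs with low small RNA counts, the 8 cases ran from 46.7 to 130.03 CPM (median 61.9 CPM) and the 13 controls from 21.7 to 48.4 CPM (median 36.3 CPM). Only control 5, at 48.4 CPM, lay above the lowest case, case 11. The means were 70.6 ± 26.8 CPM (n = 8) and 36.9 ± 6.57 CPM (n = 13), and the log2 fold change was 0.94 (SE 0.15). Cases 1, 2, 3 and 4, which had the highest triglycerides of the study's cases, were at 130.03, 66.5, 76.0 and 81.6 CPM. Cases 8, 10, 11 and 12 were at 51.8, 57.2, 46.7 and 54.9 CPM. The small RNA sets thus differ in the triglycerides of their cases as well. Whether CISH follows triglycerides was not tested.

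In the set with high small RNA counts, the 5 cases had 62.5, 48.4, 52.4, 50.1 and 45.4 CPM (cases 5, 6, 7, 9 and 13). The controls had 48.6, 54.9, 34.6, 35.3 and 78.4 CPM (controls 2, 3, 13, 14 and 15). The groups overlapped over their whole ranges, with the highest and the lowest dog both controls. The means were 51.8 ± 6.54 CPM and 50.4 ± 17.9 CPM (n = 5 each) and the log2 fold change was 0.04 (SE 0.21). It rose to 0.26 (SE 0.16) without control 15 and ran from -0.07 to 0.07 when any other of these dogs was left out.

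The group by set term, the difference between the sets in the log2 fold change of cases over controls, was fitted after the values above had been seen. It passed for 0 of 13918 genes with edgeR, while 605 (4.35%) had an unadjusted P under 0.05 and 2 genes passed with DESeq2, so a difference between the sets is not shown for CISH. As a description, the term for CISH was -0.90 on the log2 scale (SE 0.28), and between -1.001 and -0.68 when each of the 10 dogs was left out, with the smallest size without control 15. For the other 9 genes it ran from -0.38 (SOCS1) to 0.20 (SOCS4).

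**Figure D2:**
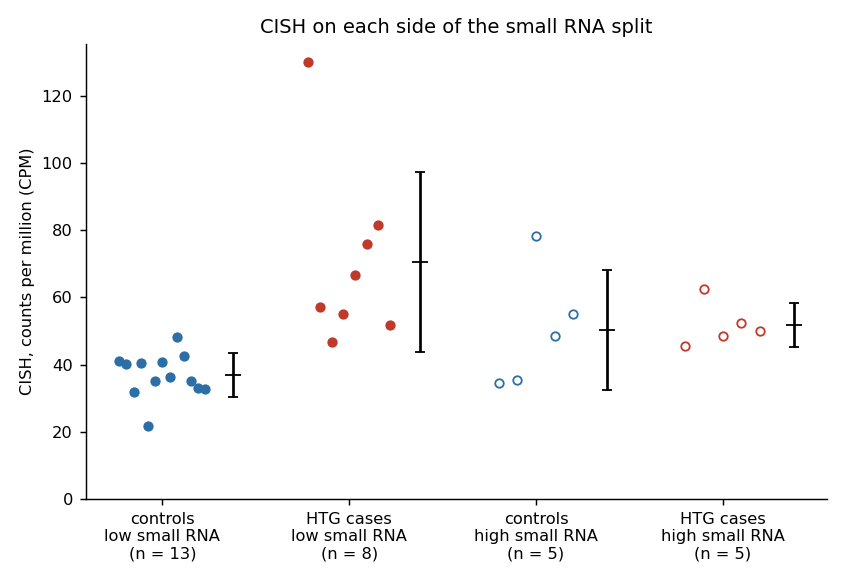
CISH level (CPM, linear axis from 0) in controls (blue) and HTG cases (red) with low and with high small RNA counts, 1 point per dog, with the mean and SD beside each set. The 8 cases with low small RNA counts average 70.6 CPM against 36.9 CPM in their 13 controls, while the 5 cases and 5 controls with high small RNA counts average 51.8 and 50.4 CPM.

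SOCS2, a STAT5 target whose protein restrains growth hormone receptor signalling, had the next largest difference. Its level ran from 1.61 to 4.59 CPM in cases (median 2.46 CPM) and from 0.709 to 4.29 CPM in controls (median 1.68 CPM). The means were 2.75 ± 0.921 CPM and 1.94 ± 1.03 CPM, a log2 fold change of 0.50 (SE 0.23), with 11 of 13 cases above the control median. The groups overlapped widely, and counts were low, with 27 to 102 per case and 15 to 86 per control.

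SOCS1, whose protein binds and blocks the JAK kinases and is known for holding back interferon signalling, ran from 1.61 to 4.29 CPM in cases and from 0.916 to 4.84 CPM in controls. The medians were 2.91 and 2.68 CPM and the log2 fold change was 0.25 (SE 0.18), with 8 of 13 cases above the control median. Both groups had at most 108 counts per dog. SOCS3, which acts on receptors that use gp130 and on the G-CSF receptor, ran from 6.51 to 17.6 CPM in cases and from 3.98 to 19.9 CPM in controls. Its medians were 9.96 and 8.37 CPM and its log2 fold change was 0.18 (SE 0.19), less than its standard error.

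The other SOCS genes, SOCS4 and SOCS5, which are linked to the epidermal growth factor receptor, and SOCS6 and SOCS7, which are less studied, had nearly equal means in both groups. SOCS4 had 9.14 ± 0.955 CPM in cases and 9.14 ± 1.42 CPM in controls. SOCS5 had 17.3 ± 1.97 and 16.5 ± 2.77 CPM, and SOCS6 had 9.18 ± 1.10 and 9.05 ± 1.38 CPM. SOCS7 had 9.93 ± 1.39 and 10.1 ± 2.56 CPM. Their log2 fold changes ran from -0.02 (SOCS7, SE 0.11) to 0.07 (SOCS5, SE 0.08), none larger than its standard error.

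The transcription factors themselves differed little. STAT5A had 100.3 ± 9.27 CPM in cases and 100.1 ± 12.4 CPM in controls, with a range of 87.9 to 122 CPM against 79.3 to 118 CPM. STAT5B had 257 ± 21.2 CPM in cases and 241 ± 33.1 CPM in controls, with a range of 224 to 305 CPM against 193 to 295 CPM. The log2 fold changes were 0.0019 (SE 0.06) and 0.09 (SE 0.07). STAT5A and STAT5B encode closely similar proteins and lie next to each other in the RefSeq table. The study's supplement lists multiply mapped reads as not assigned to a gene. How many reads that match both were left out was not tested, so their levels are uncertain.

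**Figure D3:**
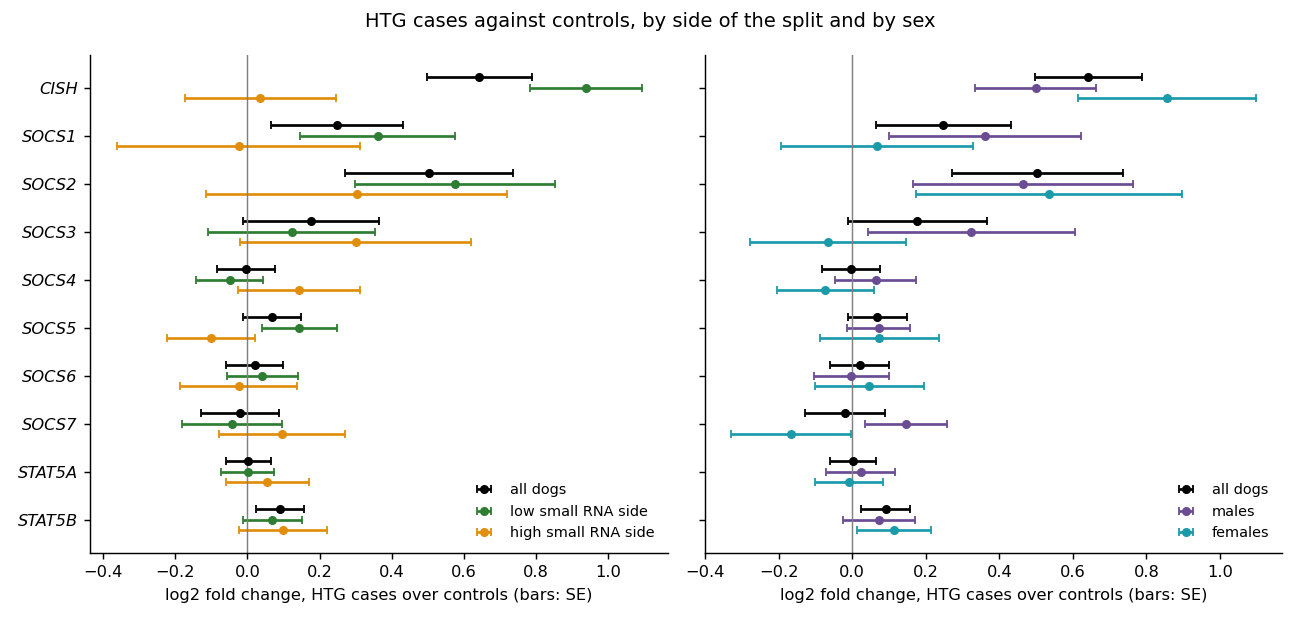
Log2 fold change of HTG cases over controls for the 10 genes (points) with its SE (bars) in all dogs, by set of small RNA counts (left) and by sex (right). CISH is at 0.94 in dogs with low and 0.04 in dogs with high counts of small RNA, and at 0.50 in males and 0.86 in females. The value in females includes case 1, at 130.03 CPM.

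Sex was a contrast that the choice of genes had not used. Between females and males, with the group as a covariate, 17 of 13918 genes (0.122%) passed an adjusted P of 0.05 with edgeR and none of the 10 genes was among them. SOCS7 had the smallest P. In controls it was at 11.8 ± 2.52 CPM in 8 females and 8.69 ± 1.63 CPM in 10 males, and in cases at 10.4 ± 2.10 CPM in 5 females and 9.66 ± 0.737 CPM in 8 males. The log2 difference of females over males was 0.30 (SE 0.10), which did not pass the correction (edgeR, unadjusted P = 0.00368, adjusted P = 0.799).

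For CISH the log2 fold change of cases over controls was 0.50 (SE 0.17) in males and 0.86 (SE 0.24) in females. Case 1, at 130.03 CPM, is a female, and the other female cases ran from 45.4 to 54.9 CPM. The value in females without case 1 was not tested. The difference between the sexes was 0.33 (SE 0.30) and did not pass (edgeR, unadjusted P = 0.275). No gene of the 13918 passed this test with edgeR or DESeq2, and 547 (3.93%) had an unadjusted P under 0.05 with edgeR.

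The 10 genes differed in how much they varied between dogs of the same group. The SD of log2 CPM within the groups was 0.63 for SOCS2, 0.53 for SOCS3, 0.52 for SOCS1 and 0.40 for CISH, against a median of 0.36 over all genes tested. It was 0.29 for SOCS7, 0.21 for SOCS4 and SOCS5 and 0.20 for SOCS6. STAT5B (0.17) and STAT5A (0.16) were the steadiest, and only 7.94% and 6.67% of genes had a smaller SD. The low counts of SOCS1 and SOCS2 add counting error to their spread.

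Variation between dogs of 1 group had not been used to choose the genes either, and CISH was compared with the other 9 on log2 CPM centred on the group mean. SOCS1 was higher in dogs with more CISH, with Pearson's r = 0.52 over 31 dogs (permutation P = 0.00214, adjusted P = 0.0193 over 9 genes) and Spearman's rho = 0.54 (permutation P = 0.00167, adjusted P = 0.0150). The value was alike in size in dogs with high (r = 0.51, n = 10) and low (r = 0.53, n = 21) small RNA counts, and was 0.38 in cases and 0.62 in controls. None of these subsets passed alone, with adjusted P of 0.569, 0.0884, 0.599 and 0.0514 in the permutation test. Case 1 and control 16 were the dogs farthest from the median of CISH before centring. Without them, r was 0.51 and the adjusted P was 0.0768 in a permutation test. After centring on the group mean, control 15 lies farther out than control 16, and r without control 15 was not tested. Centred on group and set together, r was 0.52 with an adjusted P of 0.0585 in a permutation test. The size of r was nearly the same in both, while the call was lost.

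SOCS2 had r = 0.42 with CISH, which did not pass (permutation P = 0.0157, adjusted P = 0.0706), and rho = 0.33 (permutation P = 0.0669, adjusted P = 0.301). The other 7 genes had r between -0.24 (SOCS4) and 0.27 (SOCS5), with adjusted P of 0.420 or above in the permutation test. STAT5A and STAT5B, the factors that act on CISH, had r of -0.15 and -0.05 with it.

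**Figure D4:**
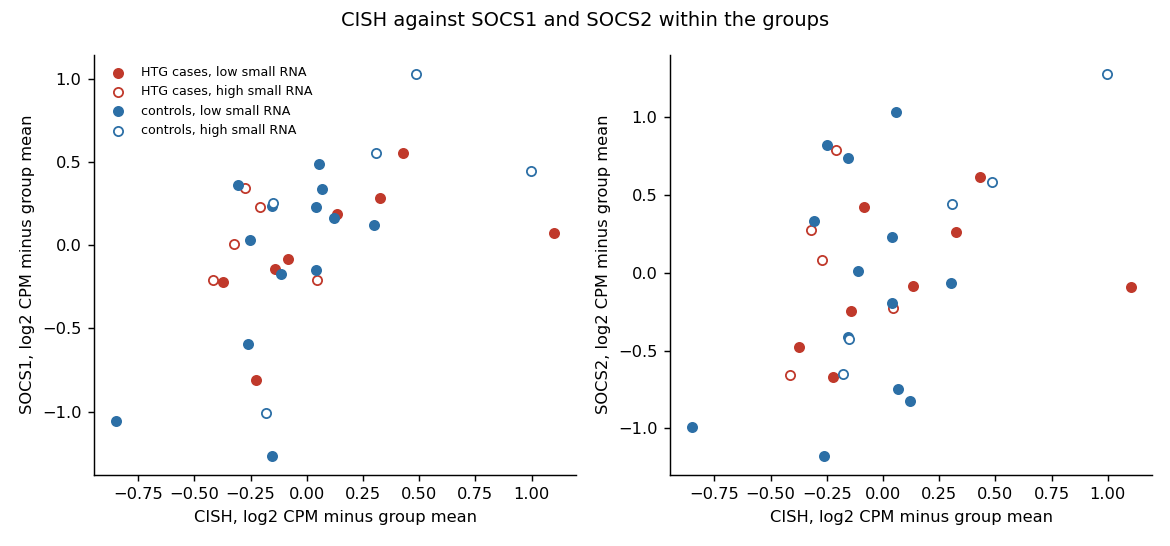
Log2 CPM of SOCS1 (left) and SOCS2 (right) against CISH, each minus its group mean, in 13 HTG cases (red) and 18 controls (blue), 1 point per dog, with open points for high small RNA counts. Dogs with more CISH have more SOCS1 (r = 0.52), with case 1 and control 15 far to the right and control 16 far to the left.

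Over all 45 pairs of the 10 genes, given as a description, r ran from -0.35 to 0.65 with a median of -0.04, and 20 pairs were above 0. All values of a dog come from 1 library, so the pairs share its depth and its mix of blood cells, which differed between dogs. SOCS1 and SOCS2 had the highest value (0.65), followed by SOCS3 and STAT5B (0.54) and by CISH and SOCS1. SOCS5 and STAT5B had 0.48 and SOCS7 and STAT5A 0.45, while STAT5A and STAT5B had -0.04 with each other. The lowest was that of SOCS5 and SOCS7.

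**Figure D5:**
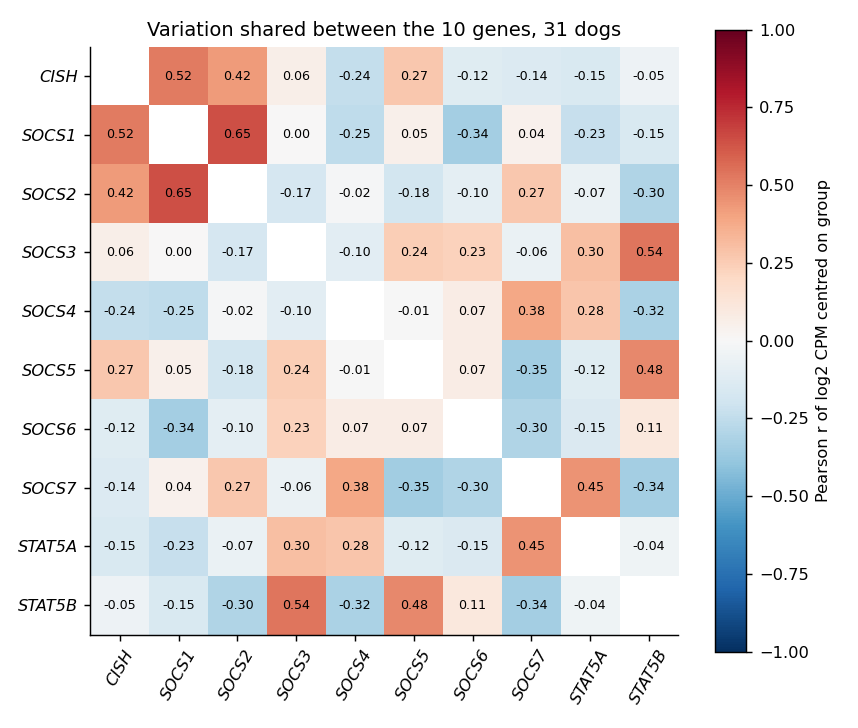
Pearson's r of log2 CPM centred on group for each pair of the 10 genes over 31 dogs, from blue (below 0) to red (above 0). SOCS1, SOCS2 and CISH have values of 0.42 to 0.65 with each other, and STAT5A and STAT5B have -0.04.

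Among the genes whose levels followed CISH most closely across the 31 dogs, centred on group, were RAPGEF2, a guanine nucleotide exchange factor (r = 0.73), an unnamed gene ENSCAFG00000009541 (0.70), PRXL2A (0.66) and GPR146, a G protein-coupled receptor (0.65). RAPGEF2 had 43.1 ± 9.20 CPM in cases and 42.8 ± 8.82 CPM in controls. ENSCAFG00000009541 had 1.84 ± 4.86 and 0.891 ± 1.57 CPM, PRXL2A 76.5 ± 70.6 and 48.5 ± 17.1 CPM, and GPR146 15.8 ± 9.77 and 13.4 ± 4.53 CPM. Without case 1 and control 16, r was 0.84 for RAPGEF2, 0.49 for ENSCAFG00000009541, 0.41 for PRXL2A and 0.44 for GPR146, so the last 3 values depend on those dogs.

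For the other 9 genes, the most similar gene was LRG1, a glycoprotein of neutrophil granules, for STAT5B (r = 0.83), ENSCAFG00000032064 for SOCS4 (0.81), and KDM5C, a histone demethylase on the X chromosome, for SOCS7 (0.77). It was GLT1D1 for SOCS3 (0.76), CNOT11, a subunit of the CCR4-NOT complex, for SOCS5 (0.76), and ENSCAFG00000005295 for SOCS1 (0.70). It was CBLC, a ubiquitin ligase, for SOCS2 (0.69), KDM2A, a histone demethylase, for STAT5A (0.67) and VCAN, the proteoglycan versican, for SOCS6 (0.66).

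Upstream of the 10 genes, 18 of 20 listed cytokine receptors were analysed. None passed with edgeR in either direction, 5 were higher and 2 lower at an unadjusted P under 0.05, and the median log2 fold change was 0.05. At that threshold 5.04% of all genes were higher and 4.76% lower, 9.81% in all. EPOR, the erythropoietin receptor, was at 16.3 ± 7.75 CPM in cases and 9.71 ± 3.83 CPM in controls (log2 fold change 0.75, SE 0.19, edgeR adjusted P = 0.113). Like CISH it was known from earlier results of these data to differ on this contrast, so these values are a description and nothing is read from a call. IL2RA, the alpha chain of the interleukin-2 receptor, was at 56.1 ± 16.2 CPM in cases and 40.3 ± 12.2 CPM in controls (log2 fold change 0.48, SE 0.15, edgeR adjusted P = 0.238). With the platelet score in the fit, EPOR was at 0.29 (SE 0.18) and IL2RA at 0.06 (SE 0.11), and with the erythroid score at 0.52 (SE 0.16) and 0.45 (SE 0.16). IL2RA was also higher in dogs with high small RNA counts, by 0.52 on the log2 scale (edgeR adjusted P = 0.00747).

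In the small RNA sets, EPOR had a log2 fold change of 0.84 (SE 0.22) in dogs with low and 0.51 (SE 0.29) in dogs with high small RNA counts. Across dogs, 49 genes of the pathway lists were set against CISH in a test added after the data had been seen. EPOR had r = 0.49 with CISH (permutation P = 0.00799, adjusted P = 0.196) and 0.29 without case 1 and control 16. GHR, the growth hormone receptor, was the only one to pass, with r = 0.55 (permutation P = 0.00102, adjusted P = 0.04998) and rho = 0.49 (permutation P = 0.00522, adjusted P = 0.256), and without case 1 and control 16 its r was 0.53 (permutation P = 0.00387, adjusted P = 0.157). Centred on group and set together, its r was 0.40 (permutation P = 0.0223, adjusted P = 0.428). The level of GHR was low, at 4.36 ± 2.18 CPM in cases and 2.51 ± 2.06 CPM in controls. Its log2 fold change between cases and controls was 0.83 (SE 0.34) in all dogs. It was 1.57 (SE 0.34) in dogs with low and -0.42 (SE 0.47) in dogs with high small RNA counts.

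Of the JAK kinases and other STAT factors, 7 of 9 listed genes were analysed and none reached an unadjusted P of 0.05. TYK2 had a log2 fold change of 0.10 (SE 0.07) and JAK1 of -0.08 (SE 0.07). JAK2, the kinase of the erythropoietin receptor, was at 266 ± 43.9 CPM in cases and 260.2 ± 51.3 CPM in controls (log2 fold change 0.03, SE 0.09, edgeR adjusted P = 0.943).

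Of 10 other STAT5 target genes none passed, and 1 was lower at an unadjusted P under 0.05 where 4.76% of all genes were, a share too close for a count of 1 to be read. This was CD69, a marker of lymphocyte activation, at 14.8 ± 3.44 CPM in cases and 17.7 ± 4.08 CPM in controls (log2 fold change -0.26, SE 0.11, edgeR adjusted P = 0.449). PIM1, a survival kinase, was at 314 ± 233 and 231 ± 127 CPM (log2 fold change 0.45, SE 0.24, edgeR adjusted P = 0.569), and at -0.02 (SE 0.12) with the erythroid score in the fit. The median over these 10 genes was 0.03.

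Of 10 other inhibitors of the pathway none reached an unadjusted P of 0.05 and the median was -0.02. SH2B3, an adaptor that restrains JAK2, had a log2 fold change of 0.16 (SE 0.09) and PTPN11, a phosphatase, of -0.11 (SE 0.06). Of the ligase subunits that the SOCS box recruits, 4 of 5 were analysed and none reached that P. RNF7 had a log2 fold change of 0.15 (SE 0.08) and CUL5 of -0.10 (SE 0.07).

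The cell types that whole blood holds were followed by 8 lists of marker genes, each scored as the mean centred log2 CPM. All lists were chosen with earlier results of these data known, and the study had reported platelet pathways on this contrast. The platelet values between cases and controls are therefore a description, and their P-values are no separate support. The platelet score was higher in cases by 0.58 on the log2 scale (0.34 ± 0.50 against -0.24 ± 0.46, permutation P = 0.00203, adjusted P = 0.0162), with 11 of 13 cases above the control median. All 9 platelet genes analysed had a log2 fold change above 0 and 6 were higher at an unadjusted P under 0.05, against 5.04% of all genes, among them GP1BA (0.80, SE 0.27), a platelet adhesion receptor, and SELP (0.56, SE 0.17), the adhesion molecule P-selectin, and none passed with edgeR. Of these 9 genes, 4 were higher in dogs with high small RNA counts (edgeR, adjusted P at most 0.05), against 4.54% of all genes, among them GP1BA by 1.02 on the log2 scale, and this set holds 5 of 13 cases and 5 of 18 controls. Centred on the set, the platelet score was higher in cases by 0.53 (permutation test, adjusted P = 0.0163). The summed level of the 9 genes ran from 864 to 4166 CPM in cases and from 599 to 4400 CPM in controls. The neutrophil score was higher by 0.63, with 13 of 13 cases above the control median, and the erythroid score by 0.77, with 11 of 13, and neither passed (permutation test, adjusted P = 0.0592 and 0.206). The other 5 scores had adjusted P of 0.249 or above in the permutation test.

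None of the 8 scores varied with CISH within the groups. The r was 0.16 for the platelet score and 0.15 for the erythroid score, and the range over the lists was -0.24 (eosinophils and basophils) to 0.22 (T cells), each with an adjusted P of 0.735 or above in the permutation test. When the platelet score was added to the fit, CISH had a log2 fold change of 0.54 (SE 0.17), and with the erythroid score in its place one of 0.59 (SE 0.15). That of SOCS2 was 0.38 and 0.65 in these fits, and that of SOCS1 0.12 and 0.24.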

How the data were processed

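Whole blood RNA of 31 dogs was sequenced. The authors deposited raw counts per gene, a single table with 1 column per dog, and per the labels the reads were handled with FastQC, Trimmomatic and HISAT2. Pairs were counted where both reads mapped, multiply mapped reads are listed as unassigned, and the strand setting is not given in the sources used here. Groups and sex were taken from the labels.

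Counts were tested with edgeR 4.0.16 (TMM, filterByExpr, quasi-likelihood test) in R 4.3.3, with Benjamini-Hochberg adjustment over 13918 genes. DESeq2 1.42.0 and limma 3.58.1 (voom) were alternatives, as were other scalings, filters, covariates and subsets. Log2 CPM used a prior count of 2. Tests used 100000 two-sided permutations, of dogs within groups for correlations and of the group labels over all dogs for scores between cases and controls. Where values were centred on the small RNA set, the permutations were made within the set too. The steps were tested on simulated data. The split by small RNA counts was the widest gap with at least 5 dogs on each side. P-values measure the spread between dogs.

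The 10 genes and all lists were chosen with earlier results of these data known. Besides them, the text names the 2 genes with the smallest P in each pathway list, EPOR and JAK2, the 5 genes most like CISH (1 of them is not reported here) and the 1 most like each other member, and platelet markers; GHR, MAPKAPK3 and HEMK1 were added after values were seen. IL9R, IFNGR2, STAT2, STAT4, UBE2F and the markers PF4, FPR1, CD14, CD4, CR2, NKG7 and SIGLEC8 were not analysed here, and ALPL and HDC did not pass the filter.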

Additional observations from a re-analysis of the deposited data

Results flagged for a closer look

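In 30 sets of 5 or 8 dogs (10 genes in cases with low, and in cases and controls with high, small RNA counts), 2 dogs lay far from the rest of their set by Dixon's criterion, and chance gives about 1 in 20 sets. These sets come from the split found in the data and not from the labels, and the 13 cases and 18 controls as wholes are too large for the criterion. SOCS4 in control 3 was at 2.51 log2 CPM (5.62 CPM), below the other 4 controls with high small RNA counts, and rested on 43 counts. SOCS5 in control 14 was at 3.93 log2 CPM (15.2 CPM), below the same set's other dogs.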

How the results depend on the processing

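Of 5 genes that passed between cases and controls with edgeR, the count was 89 with DESeq2 (68 higher, 21 lower), 0 with limma-voom, 1 with at least 10 counts in every dog, 28 without case 1 and control 3 (the libraries with the highest share of reads assigned to features), and 0 with the platelet or the erythroid score as a covariate, in males, in females, and in the dogs with high or with low small RNA counts alone. The log2 fold change of CISH stayed between 0.50 and 0.94 in every setting but 1, the dogs with high small RNA counts, where it was 0.036 and ran from -0.07 to 0.26 as each dog was left out. With the dog number as a replicate block the count was 0 (858 genes at an unadjusted P under 0.05) and CISH was at 0.62 (SE 0.10). In the study the number follows falling triglycerides within each group. The number did not pair the dogs: over 13 pairs of the same number r ran from -0.44 to 0.26, and 1 case correlated best with its own number.

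DESeq2 gave 27 genes between the sexes and 2 for the group by set term. Of the other members, 1 varied with CISH. The count was 0 when centred on group and set, without the 2 dogs farthest from the median of CISH, and in cases, controls, and dogs with high or low small RNA counts alone, and 2 without case 1 and control 3. Of the pathway genes, 1 varied with CISH, and 0 by rho, when centred on group and set, or without the 2 farthest dogs. The causes were not tested.

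Changes of sign were not counted for single pathway genes or for cases against controls in the 10 genes, where some occur. SOCS1, for example, had a log2 fold change of 0.25 in all dogs and -0.02 in dogs with high small RNA counts. Among the other values followed, 35 changed sign, none of them past a threshold. For r with CISH, they were 0.020 for SOCS7, 0.036 for STAT5A, -0.31 for erythroid, -0.15 for neutrophil and 0.060 for B cell genes without case 1 and control 3; 0.051 for STAT5B, -0.036 for erythroid, -0.092 for neutrophil, 0.032 for B cell and -0.0060 for cytotoxic genes without the 2 farthest dogs; 0.16 for SOCS4 and 0.36 for SOCS6 in cases; 0.069 for STAT5B, -0.035 for monocyte, 0.018 for B cell and -0.11 for cytotoxic genes in controls. In dogs with high small RNA counts they were 0.29 for SOCS7, 0.47 for STAT5A, 0.10 for STAT5B, -0.045 for platelet, -0.056 for erythroid, -0.20 for monocyte, 0.49 for B cell and -0.054 for cytotoxic genes, and in dogs with low counts -0.087 for SOCS3. They were -0.029 for erythroid genes by rho, and -0.013 for monocyte and 0.080 for B cell genes centred on group and set. SOCS6 between the sets was -0.0023 with no filter. As each of the 10 dogs with high small RNA counts was left out, the group by set term ran from -0.49 to 0.11 for SOCS2, from -0.0061 to 0.33 for SOCS3, from -0.12 to 0.055 for SOCS6 and from -0.039 to 0.089 for STAT5B, and a value near 0 in SOCS6 (0.0068) and STAT5B (-0.00043) came without case 6. Depth limits SOCS1 and SOCS2 most, at 15 to 108 counts per dog.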
